A study of Mus musculus with 20 samples.

Results

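A set of 303 microarray probes was examined, out of 42006 on the array, whose signal was higher in mouse embryonic stem (ES) cells kept in tamoxifen on day 4 than in ES cells that had tamoxifen on the first day only. The set was chosen by measured values. A probe was selected on a tamoxifen minus untreated difference of at least 0.6 on day 1 and again on day 2, and on a continued minus withdrawn difference of at least 0.3 on day 4, all as log2 ratios of Agilent's processed signals centred on each array's median. It also had to be well above background on all 4 tamoxifen arrays of days 1 and 2. Of the 25419 probes that met the last condition, 468 met both limits on the rise, and 165 of these stayed under the day 4 limit. The limit has no natural gap around it: Z00027497-1 and Z00076736-1 lay just inside, at 0.3003 and 0.3016, and Z00003942-1 and Z00021747-1 just outside, at 0.2989 and 0.2985.

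Zscan4 is a zinc finger protein with a SCAN domain that mouse embryos make when their own genome is first switched on and that ES cells make in short bursts. It is known for lengthening telomeres by recombination and for its link to other genes of the early embryo. In the cells used here Zscan4 is fused to ERT2, a ligand-binding domain of the oestrogen receptor that keeps a protein out of the nucleus until tamoxifen binds it. Tamoxifen therefore switches the activity of a protein that is already present, and taking tamoxifen away is meant to switch it off again.

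All groups came from ES_ZERT clone #18, a single clone of V6.5 ES cells (C57BL/6 x 129/Sv F1) that carries a pCAG-Zscan4-ERT2 transgene, which a broadly active promoter drives and which the controls carry too. Cells grew as a monolayer on gelatin, and tamoxifen was given at 200 nM. In the label of a group each sign stands for a day with tamoxifen (+) or without it (-). The continued groups were Day1 Tmx+, Day2 Tmx++, Day3 Tmx+++ and Day4 Tmx++++, the withdrawn groups were Day2 Tmx+-, Day3 Tmx+-- and Day4 Tmx+---, and the controls were Day1 Tmx-, Day2 Tmx-- and Day0. Each of the 10 groups had 2 arrays, and every array compared the sample (Cy3) with one common reference RNA (Cy5), a pool of 11 mouse cell lines mixed with ES cell RNA. Values below are log2 of sample over reference, so a level of 1 is a signal of 2 times the reference, and a difference between groups is a log2 fold change.

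The rule used the arrays of day 1, Day2 Tmx++, Day2 Tmx-- and day 4. The differences between those groups are given as descriptions, with no test. The Day0, Day2 Tmx+- and day 3 arrays played no part in the choice, and limma's moderated test on the whole table of 29414 probes was applied to them, with a probe called at a Benjamini-Hochberg adjusted p under 0.05. All 303 selected probes were in that table because the rule itself asked for signal above background. The 2 arrays of a group correlated at r of 0.98 to 1.00 across probes, and 26199 to 30069 probes per array were well above background. Slides of 4 arrays held 2 groups each, and both schedules of day 3 shared a slide, as did both schedules of day 4. Within those slides the schedule coincides with the place of the array on the slide, and these cannot be told apart. In a bulk culture a smaller share of responding cells and less RNA per responding cell cannot be told apart either.

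The files name probes by identifier alone and give no gene, genome position or transcript, and 0 of the selected probes matched a RefSeq promoter window of the GRCm38.p6 build. Genes, pathways and the markers that define ES cells could therefore not be assigned, and the labelled cell type was not checked. What the files do give is each 60-base probe sequence. It shows which selected probes share bases. Such probes may read the same transcript, which was not checked, and they are used here as repeat measurements within an array. Of the selected probes, 20 shared a run of at least 20 bases with another selected probe, in 7 pairs and 2 sets of 3. If each such set reads a single target, the 303 probes correspond to at most 292 separate targets. The stretches below, 30 bases each and written 5′ to 3′, are those of the sets that bear most on the results, with the bases shared with any selected partner probe in capitals.

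Z00054665-1: TTTAGCAAATCCAGTTGCCATTGCTTTATG
Z00070655-1: TTTAGCAAATCCAGTTGCCATTGCTTTATG
Z00077980-1: tctggttgctCATGCCTGATGACTCAACAT
Z00064111-1: CATGCCTGATGACTCAACATATGCCAAATA
Z00023889-1: GGAGAATCATGGATTTCTATTGAAATATTT
Z00075803-1: ATTGAAATATTTTTACTCTACCATTTTCTC
Z00030527-1: ctctgaGGAGAATCATGGATTTCTATTGAA

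The first pair is identical over all 60 bases and sits at separate spots of the array. Z00077980-1 and Z00064111-1 overlap by 50 bases, and Z00023889-1 shares 42 bases with Z00075803-1 and 24 with Z00030527-1. A further probe, Z00070448-1, was aligned with a tamoxifen-raised probe outside the set, Z00022415-1. Over 54 aligned bases, with the first bases of Z00070448-1 left out, they differ by 1 base (A25G, counted from the 5′ end of Z00070448-1). Here the differing base is in capitals.

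Z00070448-1: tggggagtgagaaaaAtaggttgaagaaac
Z00022415-1: tggggagtgagaaaaGtaggttgaagaaac

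The selected probes were on average poorer in G and C than the table as a whole, with 40.3% ± 5.9 (SD, n = 303) against 45.1% ± 8.6 (SD, n = 29414). The hexamer AATAAA, the usual signal for cleavage and polyadenylation near the end of an mRNA, was read on the probe's strand in 11.2% of the selected probes and 7.50% of the tested ones. Its common variant ATTAAA was in 3.63% and 3.24%. These are descriptions of the probes, and whether base composition bears on their response was not tested.

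The course of the set is first given as the median over its 303 probes of the level relative to the mean of the Day0 arrays. Under continued tamoxifen it was 0.45 on both Day1 Tmx+ arrays, 0.76 and 0.75 on the Day2 Tmx++ arrays, 0.94 and 0.96 on the Day3 Tmx+++ arrays, and 0.96 and 0.86 on the Day4 Tmx++++ arrays. In the withdrawn cells it was 0.75 and 0.74 on the Day2 Tmx+- arrays, 0.77 and 0.74 on the Day3 Tmx+-- arrays, and 0.51 and 0.46 on the Day4 Tmx+--- arrays. In untreated cells it was −0.09 and −0.06 on day 1 and 0.03 and 0.01 on day 2. The continued and withdrawn arrays lay together on day 2, had parted on day 3 and lay farthest apart on day 4, while the untreated arrays stayed near the start. Over all tested probes the same medians stayed between −0.01 and 0.04.

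**Figure D1:**
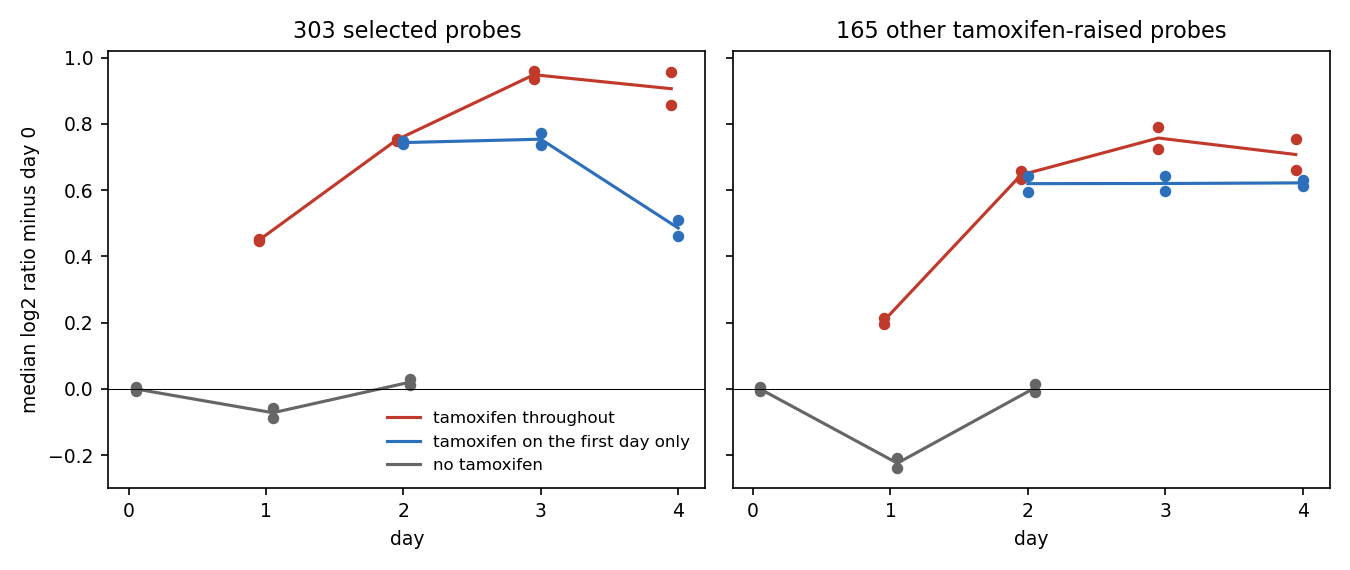
The plot shows the median log2 ratio minus the Day0 mean on each array (points) and the mean of both arrays (lines) by day, for the 303 selected probes (left) and for the 165 raised probes under the day 4 limit (right). Red is continued tamoxifen, blue is tamoxifen on the first day only and grey is no tamoxifen; in the selected set the withdrawn median is level between days 2 and 3 and lower on day 4, where the rule required a gap between the schedules.

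Continued and withdrawn cells were close on day 2, after 1 day without tamoxifen. The Day2 Tmx++ minus Day2 Tmx+- difference had a median of 0.03 with quartiles of −0.02 and 0.08, and 200 of the 303 probes were above 0. By comparison, the continued minus withdrawn difference had a median of 0.19 on day 3 and 0.37 on day 4, where the rule chose it. Over all tested probes those medians were 0.01 on each of these days. The rule favoured a large day 4 value, so the step between days 3 and 4 is no result. In the 165 raised probes under the day 4 limit, where the rule favoured a small one, the medians were 0.09 and 0.12.

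Day 3 is the comparison of continued with withdrawn tamoxifen that lies within 1 slide and on arrays the rule did not use. The selected probes were shifted to higher values in Day3 Tmx+++ than in Day3 Tmx+--, with a median of 0.19 (a fold of 1.14), quartiles of 0.12 and 0.26 and a range of −0.13 to 0.63. The 4 possible pairings of a continued with a withdrawn array gave medians of 0.18 to 0.21. Of the 303 probes, 287 lay above 0, which is 94.7%, against 55.1% of all tested probes. Both Day3 Tmx+++ arrays exceeded both Day3 Tmx+-- arrays for 255 of 303 selected probes, which is 84.2%, compared with 26.6% of the 29357 probes measured on all of these arrays. The reverse held for 5 selected probes, which is 1.65%, compared with 19.3% of the 29357. Of the 303, 32 were called higher in Day3 Tmx+++, which is 10.6% of the set, and 271 did not pass. The table-wide share called higher was 0.153%, and the share called lower was 0.367%. No selected probe was called lower by limma, and 0 were lower at an unadjusted p under 0.05, while 188 were higher at that level. Shares of all tested probes at an unadjusted p were not taken, so these counts have no background beside them. The 32 calls depend on both arrays of each group: without any 1 of the 4 day 3 arrays between 1 and 4 probes were called, of which 1 to 4 were among the 32, with a median of 0.19 to 0.20. They also depend on how the signals were prepared, as 6 probes were called with Agilent's processed signals and 0 with the local backgrounds as the scanner gave them.

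**Figure D2:**
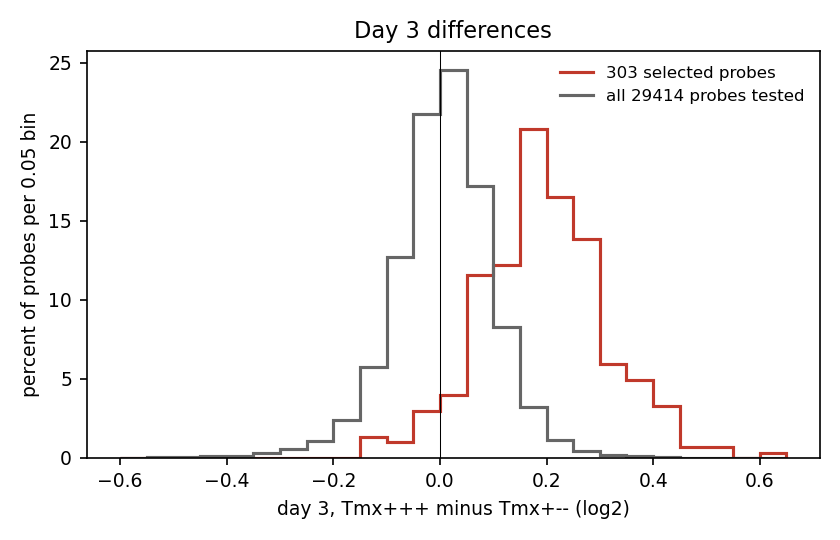
The histogram gives the percent of probes per bin of 0.05 of the Day3 Tmx+++ minus Day3 Tmx+-- difference (log2), in red for the 303 selected probes and in grey for all 29414 tested probes; a few tested probes lie outside the plotted range. The selected probes centre on 0.19 and the tested probes on 0.01.

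The 165 raised probes under the day 4 limit met the same limits on the rise. They also differed from the selected set in other ways: their Day1 Tmx+ minus Day0 median was 0.22, compared with 0.45 in the set, and their Day2 Tmx+- minus Day0 median was 0.60, compared with 0.75. Their Day1 Tmx- minus Day0 median was −0.22, compared with −0.07. The part of these gaps in the day 3 values was not tested. On day 3 their median was 0.09, with 139 of 165 above 0, and 90 of 165 had both continued arrays above both withdrawn arrays. Of these 165, 3 were called higher in Day3 Tmx+++, a share of 1.82%. In the selected set the day 3 difference went with the day 4 difference. Both were taken from the ratios used for the tests, which damp dim probes, and not from the processed signals that chose the probes. Their Spearman correlation across the 303 probes was 0.61 and their Pearson correlation 0.62. Both days were measured against the same kind of reference RNA and probes that share a target are not independent, so this is a description. Probes with a day 4 value of 0.3 to 0.5 on the rule's scale had a day 3 median of 0.17 (143 probes, 6 called). Those at 0.5 to 1 had 0.23 (130 probes, 18 called), and those at 1 or more had 0.24 (30 probes, 8 called).

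**Figure D3:**
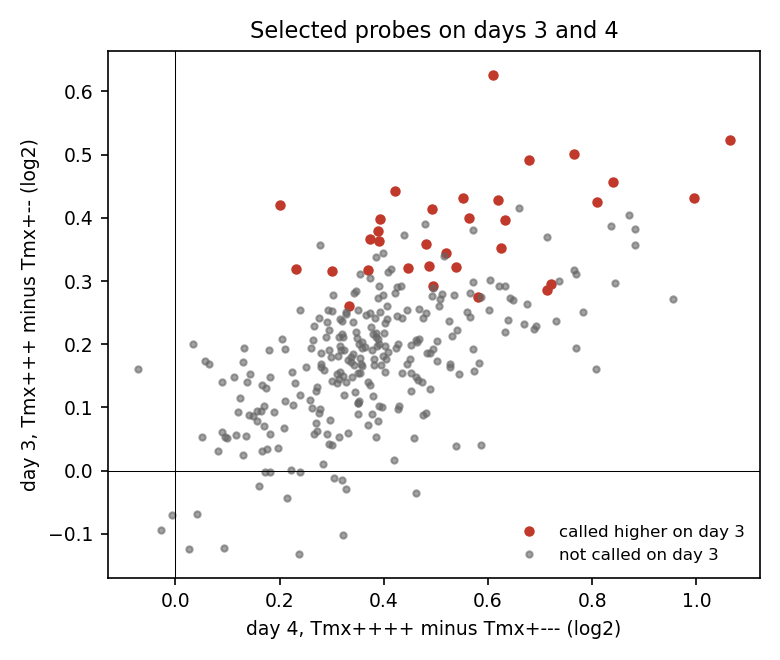
Each point is one of the 303 selected probes, with the Day4 Tmx++++ minus Day4 Tmx+--- difference on the horizontal axis and the Day3 Tmx+++ minus Day3 Tmx+-- difference on the vertical axis (both log2, loess-normalized ratios). Red points are the 32 probes called higher on day 3, and most points lie above 0 on both axes; probes under 0.3 on the horizontal axis were selected on the other scale, that of the processed signals.

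The shift was in the sample channel. With that channel taken alone the day 3 median was 0.19, and the reference channel of the same probes had a median difference of 0.01 between these arrays. On day 4 the medians were 0.34 in the sample channel and 0.00 in the reference channel.

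The largest day 3 differences are shown next, by array, for the 6 probes at the top among those called with separate groups. Z00060357-1 had levels of 3.69 and 3.54 in Day3 Tmx+++ and 2.87 and 3.10 in Day3 Tmx+--. The groups did not overlap, and the difference was 0.63 ± 0.096 (SE, n = 2 arrays each; limma adjusted p = 0.0054), a fold of 1.54. Its level was 4.39 and 4.04 in Day4 Tmx++++ and 3.66 and 3.54 in Day4 Tmx+---, against 0.80 and 0.82 on Day0. The withdrawn cells thus had their highest level on day 4, after 3 days without tamoxifen, as they did for 69 of the 303 probes by group means. The highest withdrawn mean was on day 2 for 144 probes and on day 3 for 90. Its untreated levels were −0.16 and −0.23 in Day1 Tmx- and 0.02 and 0.09 in Day2 Tmx--, all under Day0.

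Z00035453-1 showed the opposite course. It was highest on the first day of tamoxifen, with levels of 2.22 and 2.17 in Day1 Tmx+ and 0.49 and 0.56 in Day1 Tmx-. On day 3 it had 1.44 and 1.56 in Day3 Tmx+++ and 0.96 and 0.99 in Day3 Tmx+--, a difference of 0.52 ± 0.088 (SE, n = 2 arrays each; limma adjusted p = 0.011). By day 4 the withdrawn arrays, at −0.23 and −0.07, were under the Day0 levels of −0.06 and 0.02, while the Day4 Tmx++++ arrays were at 0.90 and 0.94. By then no excess over Day0 was left in the withdrawn cells.

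Z00007363-1 had levels of 1.41 and 1.52 in Day3 Tmx+++ and 0.92 and 1.01 in Day3 Tmx+--, a difference of 0.50 (limma adjusted p = 0.025). On day 4 it stood at 1.21 and 1.06 in Day4 Tmx++++ and 0.22 and 0.52 in Day4 Tmx+---, with the withdrawn arrays under the Day0 levels of 0.60 and 0.57. It is also among the 6 probes with the largest day 4 difference, 1.63 on the rule's scale. Z00062893-1, low against the reference throughout, had −0.26 and −0.21 in Day3 Tmx+++ and −0.64 and −0.74 in Day3 Tmx+--, a difference of 0.46 (limma adjusted p = 0.022). Its withdrawn level was −1.19 on both day 4 arrays, between the Day3 Tmx+-- levels and the Day0 levels of −1.99 and −2.06. Z00056505-1 had 1.82 and 1.90 in Day3 Tmx+++ and 1.48 and 1.36 in Day3 Tmx+--, a difference of 0.44 (limma adjusted p = 0.022). In all 3 the groups of day 3 were apart by more than their replicates.

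Z00077980-1 had 1.31 and 1.27 in Day3 Tmx+++ and 0.77 and 0.83 in Day3 Tmx+--, a difference of 0.49 ± 0.086 (SE, n = 2 arrays each; limma adjusted p = 0.013). Its overlapping partner Z00064111-1 gave 0.42 ± 0.094 and missed the threshold (limma adjusted p = 0.062). The 2 probes share 50 bases and are taken as 1 target. Its estimates differ by less than 1 standard error and fall on either side of the threshold.

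**Figure D4:**
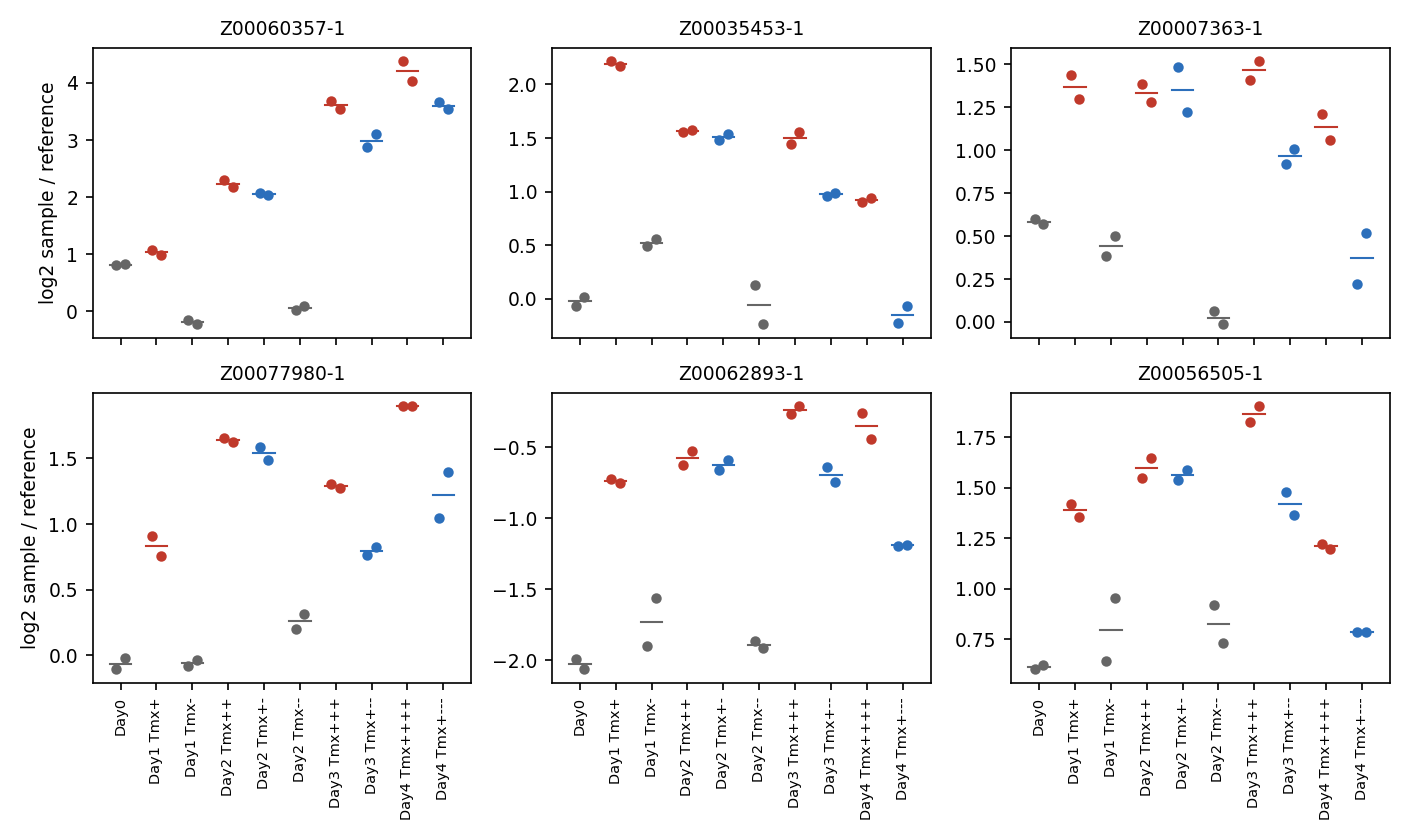
The panels give the log2 ratio of sample over reference on every array (points) with the mean of each group (bars) for the 6 probes with the largest called day 3 difference. Red is continued tamoxifen, blue withdrawn and grey untreated or Day0; on day 3 both red points lie above both blue points in each panel, and Z00060357-1 alone has its highest withdrawn level on day 4.

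The repeat probes show how far a single value can be taken. For the 12 pairs of selected probes that share a run, the day 3 differences were 0.04 apart in the median and 0.19 apart at most, and 9 of the 12 were within 0.1. The rule's day 4 values were 0.04 apart in the median but 1.01 apart at most. That widest gap belongs to the identical probes. Z00070655-1 has the largest day 4 difference of the whole set, 2.00 on the rule's scale, and its twin Z00054665-1 has 0.99. Both spots are dim. Neither Day0 array was well above background for either probe, nor was either Day4 Tmx+--- array for Z00070655-1. In the fitted ratios, whose offset of 50 damps dim spots, the twins had day 4 differences of 0.39 and 0.35. Their day 3 differences were 0.20 ± 0.075 and 0.31 ± 0.077 (SE, n = 2 arrays each; limma adjusted p = 0.39 and 0.098). For a dim array the sample signal, after the same offset and normalization, or the array's lowest signal counted as above background was taken, whichever was higher. Day2 Tmx+- was then at least 1.53-fold higher than Day0 for Z00070655-1 and at least 1.64-fold higher for Z00054665-1. For Z00070655-1 on day 4 the probe's own normalized signal was the higher value. Day4 Tmx++++ was 1.23-fold above Day4 Tmx+---, a ratio of dim spots that the offset damps. These values come from 1 colour without a dye swap and are open to dye bias.

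The set of 3 overlapping probes was less even. Z00030527-1 and Z00075803-1 were called on day 3, with differences of 0.40 and 0.32 (limma adjusted p = 0.013 and 0.018). Z00023889-1 had 0.21 and missed the threshold (limma adjusted p = 0.33). Their rule values for the first rise were close, at 1.33, 1.35 and 1.32 on day 1. Z00070448-1 was called on day 3 with 0.42 (limma adjusted p = 0.011), and Z00022415-1, which carries the substitution shown above, had 0.27 (limma adjusted p = 0.14). Z00022415-1 had rule values of 1.96 on day 1 and 1.13 on day 2, but its day 4 value of −0.03 left it outside the set. Of the 7 partner probes that lie outside the set, 2 met the limits on the rise.

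The probes with the largest rise on the rule's scale were Z00023510-1, Z00070655-1, Z00060357-1, Z00026139-1, Z00030262-1 and Z00054665-1. Z00023510-1 stood at 1.24 and 1.17 in Day2 Tmx++ and −0.80 on both Day2 Tmx-- arrays, a gap of 3.69 on the rule's scale. One day after withdrawal it was at 1.17 and 1.12 in Day2 Tmx+-, against −0.74 and −0.69 on Day0, a rise of 1.86 ± 0.10 (SE, n = 2 arrays each; limma adjusted p = 3.1e-10). On day 3 it had 1.53 and 1.45 in Day3 Tmx+++ and 1.31 and 1.28 in Day3 Tmx+--. The arrays did not overlap, but the difference of 0.19 did not pass (limma adjusted p = 0.61). On day 4 the levels were 1.07 and 0.67 in Day4 Tmx++++ and 0.26 and −0.06 in Day4 Tmx+---, with a wide gap between replicates in both groups.

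Z00026139-1 followed a like course in both schedules. It had 1.91 and 1.87 in Day3 Tmx+++ and 1.84 and 1.82 in Day3 Tmx+--, and by day 4 it was at 0.49 and 0.34 in Day4 Tmx++++ and 0.17 and 0.07 in Day4 Tmx+---. Its day 3 difference of 0.06 did not pass (limma adjusted p = 0.94) and turned to −0.02 with the processed signals. Z00030262-1 had 1.45 and 1.31 in Day3 Tmx+++ and 1.14 and 1.07 in Day3 Tmx+--, a difference of 0.27 that did not pass (limma adjusted p = 0.47). It was not well above background on either Day2 Tmx-- array. Of these 6 probes with the largest rise, only Z00060357-1 was called on day 3.

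The probes with the largest day 4 difference on the rule's scale were Z00070655-1, Z00007363-1, Z00055316-1, Z00024085-1, Z00077101-1 and Z00056634-1, with 2.00, 1.63, 1.60, 1.53, 1.42 and 1.40. Several of them are dim on day 4, where the rule set no demand on signal. Z00055316-1 was not well above background on either Day4 Tmx+--- array. By normalized sample signal, which the offset damps, Day4 Tmx++++ was 1.07-fold higher for it. Z00077101-1 was not well above background on any day 4 array, so it has no day 4 fold, and its fitted day 4 difference was −0.03. On day 3 it had 0.16 and 0.11 in Day3 Tmx+++ and 0.22 and 0.23 in Day3 Tmx+--, and the difference of −0.09 did not pass (limma adjusted p = 0.84). Z00056634-1 had a day 3 difference of 0.10 that did not pass (limma adjusted p = 0.76). Z00024085-1 was measured on all arrays of days 3 and 4. It had −0.57 and −0.51 in Day3 Tmx+++ and −0.93 and −0.94 in Day3 Tmx+--, a difference of 0.40 ± 0.072 (SE, n = 2 arrays each; limma adjusted p = 0.016). On day 4 it had −0.55 and −0.67 in Day4 Tmx++++ and −1.25 and −1.23 in Day4 Tmx+---, so the withdrawn arrays were at the Day0 levels of −1.24 and −1.30.

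Detection is given as a description. The rule asked for a higher continued signal on day 4 and for signal above background on earlier tamoxifen arrays. A gap between the schedules in the day 4 counts is therefore no result. Shares of all tested probes were not taken for detection. Of the 303 probes, 296 were well above background on both Day4 Tmx++++ arrays and 281 on both Day4 Tmx+--- arrays, and 5 and 9 on neither. On day 3, whose arrays the rule did not use, the counts were close, at 301 for Day3 Tmx+++ and 298 for Day3 Tmx+--. On both Day0 arrays 251 probes were well above background. A total of 227 were so on all 20 arrays. On the fitted scale 3 selected probes had a day 4 difference at or under 0, namely Z00072896-1 (−0.07), Z00077101-1 (−0.03) and Z00046651-1 (−0.01), which were picked out here after their values were seen.

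The 4 lowest day 3 differences were −0.13 for Z00024719-1, −0.12 for Z00025341-1, −0.12 for Z00076127-1 and −0.10 for Z00071034-1, and none passed (limma adjusted p = 0.85, 0.76, 0.74 and 0.85). Z00024719-1 had 1.78 and 1.64 in Day3 Tmx+++ and 1.77 and 1.92 in Day3 Tmx+--, and these ranges overlap. It was far above its Day0 levels of 0.27 and 0.28 in both schedules. Z00071034-1, not well above background on Day0, had 0.59 and 0.47 in Day3 Tmx+++ and 0.63 and 0.64 in Day3 Tmx+--, with both continued arrays under both withdrawn arrays. Z00025341-1 had 0.60 and 0.54 in Day3 Tmx+++ and 0.66 and 0.72 in Day3 Tmx+--, against 0.41 on both Day0 arrays. Z00076127-1 had −0.20 on both Day3 Tmx+++ arrays and −0.08 on both Day3 Tmx+-- arrays, against −0.22 and −0.24 on Day0. The lower end of the day 3 values thus holds both probes still above Day0 and probes near it.

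The next comparisons ask whether the probes were still above Day0 after withdrawal. They set day 2 and day 3 against Day0 and so cross slides, and slide and group cannot be told apart in them. One day after withdrawal 284 of the 303 probes were called higher in Day2 Tmx+- than on Day0, with a median difference of 0.75, against 16.1% of all tested probes called higher. The other 19 did not pass, and 0 were called lower (0 also at an unadjusted p under 0.05 in limma), against 15.8% called lower in the table. After 2 days without tamoxifen 267 were called higher in Day3 Tmx+-- than on Day0, with a median of 0.75, against 20.5% in the table, and 260 probes were called higher on both days. For 3 probes Day3 Tmx+-- was called lower than Day0, against 19.2% in the table. In Day3 Tmx+++ 283 were called higher than on Day0, with a median of 0.95, and 1 was called lower, against 23.6% and 20.6% in the table. The 3 probes that were lower after withdrawal were Z00027194-1 (−0.32), Z00004783-1 (−0.30) and Z00043856-1 (−0.20), and Z00027194-1 was also the one that was lower in Day3 Tmx+++ (−0.21). The 165 raised probes under the day 4 limit were called higher than Day0 in like shares. These were 86.7% in Day2 Tmx+-, 88.5% in Day3 Tmx+-- and 90.9% in Day3 Tmx+++, against 93.7%, 88.1% and 93.4% of the selected set. A rise kept over Day0 is therefore not particular to the set.

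A total of 259 probes were called above Day0 in Day2 Tmx+-, Day3 Tmx+-- and Day3 Tmx+++ alike. Another 17 were called higher than Day0 in Day3 Tmx+++ but not in Day3 Tmx+--. Passing against Day0 in continued cells only is no test of a difference between the schedules. Shares of all tested probes were not taken for these joint counts. These comparisons share the Day0 arrays, so their counts are not independent. Among the 245 probes at least 0.5 above Day0 in Day3 Tmx+++, the withdrawn cells held a median of 81.8% of that log2 rise on day 3 (quartiles 73.7% and 88.1%), and 0 held under 25%. On day 4, whose arrays the rule used, the median was 66.4% of the rise among 209 probes, with 8 under 25%. No untreated cells were sampled on days 3 and 4. A rise over Day0 that tamoxifen left behind and a change with days in culture therefore cannot be told apart there. The set is described by the day 4 gap that chose it and not as one that needs tamoxifen. The greater part of the excess over Day0 was still there 2 days after tamoxifen was removed.

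On the 32 probes called higher in Day3 Tmx+++, the day 3 differences ran from 0.26 to 0.63 with a median of 0.37. In 30 of them Day3 Tmx+-- was called higher than Day0. The exceptions, noted after their values were seen, were Z00066973-1 and Z00024136-1. Z00066973-1 was 0.27 above Day0 in Day3 Tmx+++ (limma adjusted p = 0.00064) and −0.09 from it in Day3 Tmx+-- (limma adjusted p = 0.23). Z00024136-1 was 0.29 above Day0 in Day3 Tmx+++ (limma adjusted p = 0.0011) and −0.02 from it in Day3 Tmx+-- (limma adjusted p = 0.80). In both, neither direction from Day0 passed the test without tamoxifen.

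From day 2 to day 3 without tamoxifen the set split. Of the 303 probes 77 were called lower in Day3 Tmx+-- than in Day2 Tmx+-, 79 were called higher and 147 did not pass, so the median of −0.02 hides movements both ways. Over all tested probes 11.7% were called lower and 13.7% higher, and these arrays lay on different slides. Of the 165 raised probes under the day 4 limit 19.4% were called lower and 27.3% higher, against 25.4% and 26.1% of the set. The 77 probes that fell had a median of −0.39, and 69 of them were also lower in Day3 Tmx+++ than in Day2 Tmx++, with a median of −0.18. The 79 that rose had a median of 0.38, and 0 of them were lower in Day3 Tmx+++ than in Day2 Tmx++, where their median was 0.52. The continued cells thus moved the same way as the withdrawn cells in both classes. The Day3 Tmx+++ minus Day3 Tmx+-- median was 0.22 in the probes that fell, 0.21 in those that rose and 0.18 in the rest, with 15, 7 and 10 probes called.

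Named probes show each class. Z00077980-1 fell to 0.77 and 0.83 in Day3 Tmx+--, against 1.59 and 1.49 in Day2 Tmx+- (limma adjusted p = 1e-05), and was again at 1.04 and 1.39 in Day4 Tmx+---. Z00035453-1 and Z00007363-1 fell as well, by 0.53 and 0.39 (limma adjusted p = 3e-04 and 0.0071). Z00060357-1 rose by 0.93 and Z00026139-1 by 0.82 over the same day without tamoxifen (limma adjusted p = 3.3e-06 and 1.5e-05).

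By the mean of each group, 120 of the 303 probes were highest in Day4 Tmx++++, 85 in Day3 Tmx+++, 40 in Day2 Tmx++ and 34 in Day1 Tmx+, and 20 were highest in Day2 Tmx+- and 4 in Day3 Tmx+--. The lowest group was Day1 Tmx- for 148 probes, Day0 for 70, Day4 Tmx+--- for 43, Day2 Tmx-- for 41 and Day4 Tmx++++ for 1. The rule used most of these arrays and subtracts Day1 Tmx- from Day1 Tmx+. From Day0 rather than from Day1 Tmx- the first-day difference of the set had a median of 0.45 in place of 0.57. On day 4, 64 probes had a Day4 Tmx+--- mean at or under that of Day0, and 20 had a Day4 Tmx++++ mean at or under it.

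Starting levels ranged widely. On Day0 96 of the probes were at a log2 ratio of −1 or less, 179 between −1 and 1, and 28 above 1, where the reference itself contains ES cell RNA. The day 3 medians in these classes were 0.22, 0.17 and 0.19, with 16, 16 and 0 probes called. Between Day2 Tmx+- and Day3 Tmx+-- the medians were 0.11, −0.05 and −0.14. Among the 76 probes of lowest mean signal over all arrays the day 3 median was 0.14 with 3 called, and in the other 3 classes of like size it was 0.20 to 0.22, so signal moves with the size of the day 3 difference, and its part in the result was not tested. Among the 76 probes with the smallest first rise the day 3 median was 0.16 with 4 called, and among the 76 with the largest it was 0.24 with 16 called.

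Outside the set, the 5 tested probes whose 10 group means followed the set's mean course most closely were Z00017568-1, Z00055402-1, Z00044148-1, Z00007007-1 and Z00070059-1, with Pearson correlations of 0.98 to 0.99 over the group means. None had met the limits on the rise, because their day 1 values on the rule's scale were 0.17 to 0.45. On day 3 they were 0.06 to 0.22 higher in Day3 Tmx+++, and none passed (limma adjusted p of 0.17 to 0.89).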

How the data were processed

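The authors deposited scanner files with intensity values per spot and channel (Agilent Feature Extraction, version 9.5.1.1, named in the headers), and a series matrix of log10 values, whose centring and normalization are not given in the sources used here. The rule was applied to the deposited processed intensity values. For tests, mean signals were background corrected (limma 3.58.1 in R 4.3.3, normexp, offset 50), after 12 local backgrounds above 10 times their array's median, all on the first Day1 Tmx- array, were replaced by that median. Ratios were loess-normalized within arrays, 91 outlier values were set missing, and a probe stayed if both arrays of any 1 group had it well above background. A group-means model was fitted to all 20 arrays with lmFit and eBayes and adjusted over 29414 probes. The fit was tested on simulated data, where it missed most of the smallest changes simulated, so a probe that did not pass may still differ. Fold changes are damped for dim probes.

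Nothing in the labels shows that replicate arrays stem from separate cultures, and p-values then cover only array-to-array spread, possibly technical. The 2 arrays per group limit the precision. Probes named were those with the 6 largest first rises, day 4 differences and called day 3 differences, the 4 lowest day 3 differences, those nearest the day 4 limit and those nearest in course. Probes that share sequence were added after their sequences were compared. Gene lists and marker lists could not be applied without gene names. The members and lists were chosen with earlier results of these data known. Same-numbered arrays of the day 3 groups did not deviate together (correlation −0.01), so replicate numbers were not taken as pairs. No columns of other samples were used.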

Additional observations from a re-analysis of the deposited data

How the results depend on the processing

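Direction was followed for the set's day 3 median and for the day 3 differences of the 19 probes named for their largest or lowest values. It was kept under every alternative run except in 5 values of 3 probes that did not pass on day 3. These were Z00026139-1 (−0.0155 with processed signals, −0.0472 with the series matrix), Z00077101-1 (0.144 and 0.112) and Z00056634-1 (−0.0226 with processed signals). Adjusted p was less stable. For Z00035453-1 the limma adjusted p of 0.011 was 0.46 with local backgrounds as given and 0.11 with processed signals. Day 4 differences were not followed in this way, and for 3 selected probes given above they changed direction between the processed signals and the fitted ratios. Selected probes called higher on day 3 numbered 32, and 0 with local backgrounds as given, 6 with processed signals and 20 with the series matrix. Fewer were called when a day 3 array was left out. The series matrix had values for only 227 of the 303 selected probes, so its values here and below cover a smaller set. With local backgrounds as given 59 selected probes were higher at an unadjusted p under 0.05 in limma. Shares of all tested probes were not taken at that level. The smallest adjusted p of the selected probes was then 0.079, with prior degrees of freedom of 2.37 in place of 6.94. All probes called on day 3 numbered 153, and 7, 38 and 86 with backgrounds as given, processed signals and median centring, and 12 to 91 without one array. The day 3 median of 0.19 was 0.27 with processed signals, 0.25 with the series matrix and 0.21 over the 227 probes detected on all arrays. It was 0.18 and 0.23 with day 4 limits of 0.2 (369 probes) and 0.5 (160 probes), and 0.19 to 0.20 without one array. Selected probes lower in Day3 Tmx+-- than in Day2 Tmx+- numbered 77, and 30 with backgrounds as given, 47 with the series matrix and 54 to 64 without one array. The cause was not tested. With the replicate number as a block, 32 selected and 161 of all probes were called on day 3, and no other call count changed by over 1.5 times. Leaving out each of the 12 arrays of the rule in turn, chosen after seeing the data, gave 265 to 330 probes, of which 253 to 297 were in the set, with day 3 medians of 0.19 to 0.20 and 30 to 34 calls. Dim spots limit the day 4 values.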
